A study of Mus musculus with 8 samples.

Results

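The members described here were the array probes for mouse full-length cDNA clones, that is, the non-control probes whose systematic name on the array is AK followed by digits. There were 2497 such probes among 55681 non-control probes, and they carried 2457 clone accessions. They were set against the 26536 probes named for RefSeq mRNAs, whose names begin with NM_. Symbols were looked up by RefSeq transcript accession in a gene table (assembly GRCm38.p6), and 26083 NM probes gained one. An AK name cannot match a RefSeq accession, and none matched a gene synonym in that table. This lookup does not show whether a clone belongs to a known gene. The clones therefore keep their accessions, and no gene is named for them.

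Accessions of the AK series belong to full-length cDNA clones that large mouse sequencing projects, chiefly the RIKEN effort, deposited in the public sequence databases. Such clones were made by copying whole capped and polyadenylated transcripts, and they were picked partly so that transcripts without a known gene would be caught. Many of them come from long noncoding RNAs, from antisense or intronic transcription or from alternative ends of coding genes. RefSeq mRNA records, by contrast, stand for curated protein-coding transcripts. When oxygen falls, the prolyl hydroxylases that mark the alpha subunits of hypoxia-inducible factors (HIF) for destruction slow down, and the stabilised factors raise transcription of genes for glycolysis, glucose uptake, pH control and angiogenesis. Noncoding transcripts can also be HIF targets.

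The cells were neural stem cells isolated from mouse embryos of the OF-1 strain at embryonic day 13.5 and grown without serum. From the first day in culture, cells were held side by side at 21% oxygen, named normoxia by the labels, and at 5% oxygen, named hypoxia, for at least 10 days and 2 to 3 passages. There were 4 such experiments with different donors, which gave 4 cultures at 21% and 4 at 5% oxygen, and arrays with the same replicate number were treated as a pair. Each culture was read on 1 single-colour array, and all 8 arrays lay on 1 slide, so slide and scan could not be examined as batches. These are whole cultures, so a change in the number of cells of 1 kind and a change in RNA per cell cannot be told apart.

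Coding genes known to respond to low oxygen did so here. Car9, a carbonic anhydrase, stood 4.25 higher on the log2 scale at 5% oxygen (SE 0.39, adjusted p = 0.00223), Vegfa, the vascular growth factor, stood 2.04 higher (SE 0.25, adjusted p = 0.00524), and of 50 tested genes of a list of HIF targets 35 rose and none fell. All 9 neural stem and radial glia markers were above background on every array. Markers of other cells were present too. All 6 neuronal, 4 astrocytic and 5 oligodendrocyte-lineage markers, 3 of 4 fibroblast markers, 3 of 4 endothelial and 2 of 4 microglial markers were above background on all 8 arrays, and 2 of 4 erythroid markers were on none. Of these, 2 fibroblast, 1 neuronal and 1 oligodendrocyte-lineage marker rose at 5% oxygen and 1 endothelial marker fell. The summed level of the fibroblast markers, in units of the array's 75th percentile, ran from 0.967 to 4.59 at 21% and from 2.00 to 8.59 at 5% oxygen and was highest in culture 4 in both, and its part in the results on the clones was not tested. The 75th percentile of the arrays ran from 1909 to 7352 intensity units, and no spot was saturated.

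The AK probes were at background more often than the NM probes. Of 2497 AK probes, 1305 (52.3%) were well above background on all 8 arrays, 648 (26.0%) on none and 544 on 1 to 7 arrays. For NM probes, 73.5% were above background on all 8 arrays and 14.0% on none. The share of AK probes above background was 60.2%, 58.9%, 63.1% and 67.5% on the arrays of normoxia 1 to 4 and 59.5%, 65.5%, 56.3% and 63.5% on those of hypoxia 1 to 4. On every array this share was below that of the NM probes, with AK minus NM between -20.19 and -15.03 percentage points. Averaged over both arrays of an experiment the difference was -17.4 percentage points (SD 1.13, n = 4 experiments), with the same sign in 4 of 4. An exact two-sided sign-flip test gave p = 0.125, the smallest that 4 experiments allow. Low detection was not particular to the clones. RefSeq noncoding probes (NR_ names) ran from 53.2% to 63.7% and probes named only by a genomic interval from 49.3% to 63.9%. Both classes lay below the AK probes on every array.

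Oxygen did not shift the share detected beyond the spread between experiments. The AK share was 62.4% ± 3.80 at 21% and 61.2% ± 4.11 at 5% oxygen (SD, n = 4 each). Within experiments the difference of 5% minus 21% oxygen was -0.68, 6.58, -6.80 and -4.00 percentage points, with a mean of -1.23 (exact two-sided sign-flip p = 0.625). The NM probes changed in the same direction within each experiment, by -0.46, 3.53, -4.29 and -1.13 points (exact p = 0.625). The arrays with the widest spread of negative-control spots, hypoxia 3 at 38.1 and normoxia 2 at 34.3 intensity units against 13.5 to 23.5 on the others, were also those with the lowest AK shares. Its part in the detection differences was not tested.

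**Figure D1:**
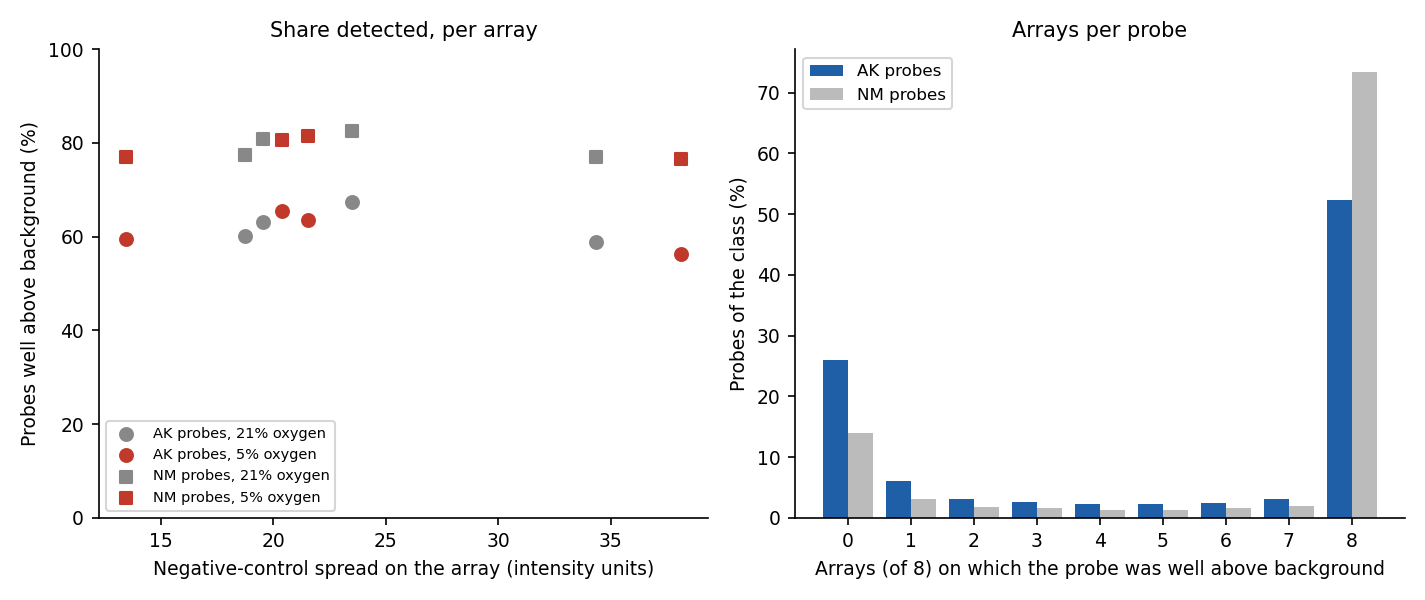
Left, the percent of AK probes (circles) and NM probes (squares) well above background on each of the 8 arrays, against the spread of negative-control spots on that array in intensity units, with 21% oxygen in grey and 5% oxygen in red. Right, the percent of probes of each class by the number of arrays on which they were above background. On every array the AK point lies under the NM point, with AK minus NM between -20.19 and -15.03 percentage points, and 52.3% of AK against 73.5% of NM probes were above background on all 8.

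The clones fall into runs of accession numbers, which broadly follow the order of deposition. These runs were formed after the values had been seen and are given as a description. The earliest run, AK002 to AK021, held 716 probes, of which 53.9% could be tested and 32.4% were at background on every array. The middle run, AK028 to AK090, held 1113 probes with 65.1% tested and 22.6% at background everywhere. The run AK131 to AK172 held 648 probes with 62.7% tested and 24.8% at background everywhere. On the single arrays, 48.6% to 59.5% of the earliest run, 60.7% to 71.6% of the middle run and 56.7% to 68.7% of the late run were above background.

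Testing required a signal well above background on 3 or more of the 4 arrays at either oxygen level. This kept 1533 AK probes (61.4%) and left 964 without a test, compared with 78.8% of NM probes kept. Of the 1533, 1422 met the filter in both conditions, 76 at 21% oxygen only and 35 at 5% oxygen only. A probe kept through 1 condition only had to look different between them, so counts over tested probes are not counts over all clones. Signals are given as log2 relative to the 75th percentile of the array. The median signal of tested probes was -3.76 for AK and -0.06 for NM, which describes probe brightness and is no measure of relative transcript abundance.

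At 5% oxygen, 57 AK probes rose and 28 fell (limma with the experiment as a block, Benjamini-Hochberg adjusted p under 0.05 over all 37646 tested probes). Of these calls, 10 met the filter in hypoxia only and 10 in normoxia only. Such probes had to look different between the conditions to be tested, so the counts and shares rest partly on the filter. Of the 57 and 28, 42 and 16 were well above background on all 8 arrays. With the fit limited to probes above background on all 8 arrays, 58 of 1305 AK probes rose and 27 fell. The 57 are 3.72% of the tested AK probes, against 3.66% of all tested probes and 4.72% of NM probes called higher. The 28 are 1.83%, against 1.13% of all tested probes and 1.42% of NM probes called lower. The AK counts therefore lie near the background of the array, and differences between the classes were not tested. The order of the classes among falls turned with the processing. With normexp background correction 1.37% of AK, 1.61% of all and 2.28% of NM probes were called lower, and with trend and robust moderation 2.48%, 2.33% and 3.14%. Rises made up 67.1% of the AK calls and 76.9% of the NM calls, 60.0% and 73.3% with quantile normalization in place of 75th-percentile scaling, and 78.4% and 74.4% with normexp, where the order of the classes turned.

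The calls rest on comparing within experiments. Without the replicate block 4 AK probes were called, all higher, against 0.0983% of all tested probes, and 128 AK probes had an unadjusted p under 0.05. All 85 AK probes called with the block had the same sign in 4 of 4 experiments. The calls were made on these same differences, so this is no separate support. At least 2-fold changes were seen in 48 of the 85 (33 higher, 15 lower) among 1533 tested. Over all 37646 tested probes, 756 were called with such a rise and 180 with such a fall, and over 20907 NM probes 575 and 124. Of the 85, the 4 arrays of 1 condition lay wholly above those of the other in 32 (27 higher, 5 lower). Over all tested AK probes such separation occurred in 58 (3.78%), and over all tested probes in 4.66%. Leaving out experiment 3 left 18 AK calls, experiment 1 left 40 and experiment 2 left 42, while leaving out experiment 4 raised the count to 111. Of the original 85, 36, 39, 18 and 68 were still called without experiments 1, 2, 3 and 4, and 16 were called in every case.

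**Figure D2:**
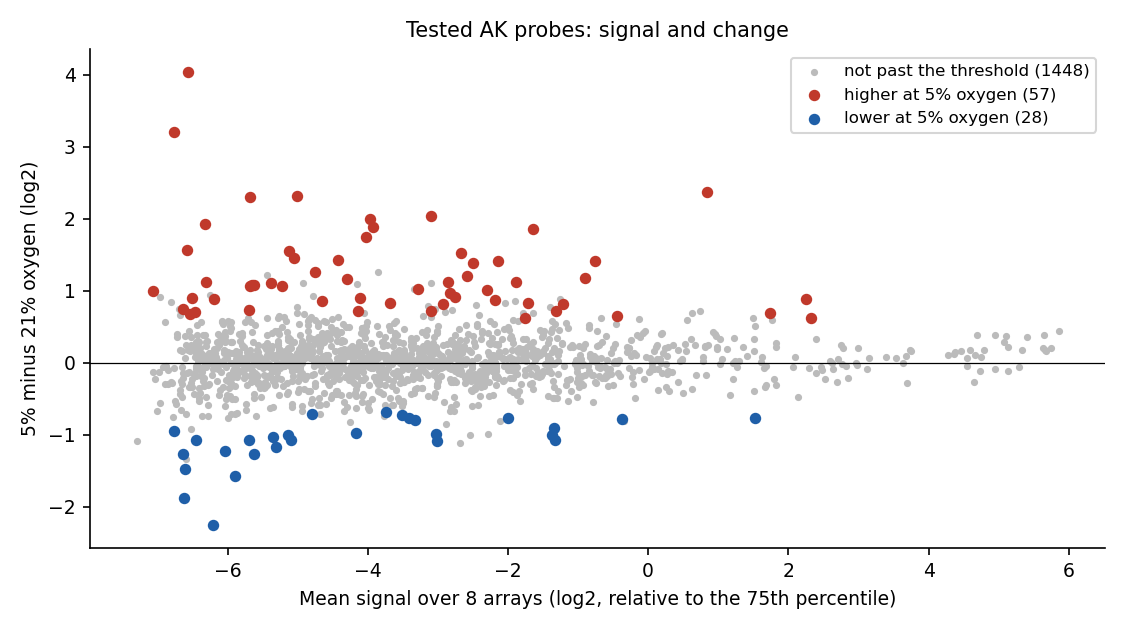
Each point is 1 of the 1533 tested AK probes, with its mean signal over 8 arrays on the horizontal axis and its mean change within experiments, 5% minus 21% oxygen, on the vertical axis, both on a log2 scale. Red points are the 57 called higher, blue points the 28 called lower and grey points the 1448 others. The fitted changes reach 4.04 among those called higher and -2.25 among those called lower, both for probes at background on most arrays of the lower group.

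The typical AK probe hardly moved. The median change over tested AK probes was 0.03 and the median size of the change was 0.20, against -0.01 and 0.19 for NM probes and 0.02 for the median change of all probes. By experiment the AK median was 0.11, 0.23, -0.08 and -0.06 (exact two-sided sign-flip p = 0.625). The sign of this median turned to -0.02 with median scaling and to -0.01 with quantile normalization, so no direction is given for the class as a whole. The AK median minus the NM median was 0.13, 0.16, 0.03 and -0.10 by experiment (exact p = 0.375).

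Among the rises, AK018486 and AK035757 were the clones that low oxygen brought above background. AK018486 had signals of -8.82, -7.44, -8.59 and -9.49 in normoxia 1 to 4 and -4.20, -3.51, -4.56 and -5.91 in hypoxia 1 to 4. It was above background on none of the 4 arrays at 21% and on all 4 at 5% oxygen, and the groups did not overlap. Its level at 21% is thus not known. The rise was 5.02-fold when each 21% array was given the higher of the probe's own signal and a floor. The floor was the lowest signal of any probe well above background on that array. Such a floor is no strict limit, since a probe can lie above it and still not be well above background. The measured means were -8.59 ± 0.85 and -4.54 ± 1.01 (SD, n = 4), with an adjusted p of 0.000723 from the fit. AK018486 was 1 of the 4 called without the block (adjusted p = 0.0320). It entered the test through the 5% arrays alone, where it is high. With normexp, which adds an offset to every signal, its change was 1.497, below the 2.37 of AK020106 under the same correction, so it is given no rank.

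AK035757 followed the same pattern with -8.81, -7.23, -7.97 and -9.48 at 21% and -5.36, -3.97, -5.47 and -5.88 at 5% oxygen. It too was below background on every 21% array and above it on every 5% array, with no overlap. Reckoned against the same floor, the rise was 3.25-fold. The measured means were -8.37 ± 0.98 and -5.17 ± 0.83 (SD, n = 4), with an adjusted p of 0.000758 from the fit and 0.0597 without the block. This probe also entered the test through the 5% arrays alone, and with normexp its change was 1.17. No other AK probe was above background on all 4 arrays of 1 condition and on none of the other.

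AK020106 was by far the brightest of the strongly raised clones and rose by nearly the same amount in every experiment. Its signal was -0.65, 1.17, 0.11 and -2.03 at 21% and 1.51, 3.44, 2.60 and 0.52 at 5% oxygen. The groups overlapped, because culture 2 at 21% was brighter than culture 4 at 5%. Within experiments the rise was 2.17, 2.28, 2.49 and 2.55, a mean of 2.37 or 5.17-fold (SE 0.14, adjusted p = 0.000758). Without the block the adjusted p was 0.320.

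AK039405 and AK031092 rose in every experiment, least in experiment 4, and were above background on all 8 arrays. The rises in experiments 1 to 4 were 2.55, 2.52, 2.34 and 1.87 for AK039405. For AK031092 they were 2.27, 2.24, 2.13 and 1.55. AK039405 went from -6.22, -5.35, -6.08 and -7.02 to -3.66, -2.83, -3.74 and -5.15, a change of 2.32 (4.99-fold, SE 0.16, adjusted p = 0.00137), with no overlap, and 1.49 with normexp. AK031092 went from -4.00, -3.17, -4.23 and -5.06 to -1.72, -0.93, -2.10 and -3.51, a change of 2.05 (4.13-fold, SE 0.17, adjusted p = 0.00154). Its groups overlapped through culture 2 at 21% and culture 4 at 5% oxygen.

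AK132370, AK017853 and AK141659 were the other 3 clones called without the block, each with an adjusted p of 0.0320 there. AK132370 had -5.01, -4.51, -4.99 and -5.37 at 21% and -2.70, -2.54, -3.25 and -3.41 at 5% oxygen, a change of 2.00 (3.99-fold, SE 0.15). AK017853 had -5.09, -4.52, -4.90 and -4.95 against -3.01, -2.35, -3.15 and -3.39, a change of 1.89 (3.70-fold, SE 0.16). AK141659 had -3.31, -3.26, -3.67 and -3.51 against -1.79, -1.82, -1.83 and -2.22, a change of 1.52 (2.87-fold, SE 0.15). In all 3 the groups were separate, the probe was above background on all 8 arrays, and the SD over the 4 arrays of either condition was at most 0.45.

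Of the other clones among the 15 largest rises, AK037533 rose by 1.85 (3.62-fold, SE 0.22), AK040933 by 1.75 (3.35-fold, SE 0.17), AK045070 by 1.55 (2.93-fold, SE 0.24) and AK132218 by 1.46 (2.76-fold, SE 0.14), all above background on 8 arrays. AK037533 and AK045070 lost the call without experiment 3, at adjusted p = 0.0571 and 0.0974. AK077315 (2.31, SE 0.33), AK141773 (1.93, SE 0.28) and AK143961 (1.58, SE 0.33) were above background on 1, 2 and 1 of the 4 arrays at 21% and on all 4 at 5% oxygen. They entered the test through the 5% arrays alone. Their fitted changes thus rest partly on signals at background and were 1.06, 0.74 and 0.57 with normexp. Under normexp AK045070 changed by 1.00 and AK132218 by 0.90. AK077315 lost the call without experiment 2 or 3 (adjusted p = 0.0584 and 0.0742), AK141773 without experiment 3 (0.0938) and AK143961 without experiment 1 or 3 (0.0884 and 0.133) and with median or quantile scaling. Over the 15, the groups were separate in 11, and 10 were called whichever experiment was left out. Such separation occurred in 4.66% of all tested probes. The 15 were picked by size among the calls, so neither count is separate support. The other 42 raised probes changed by 0.63 to 1.43, and 32 of them were above background on all 8 arrays.

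The median change was -1.02 over the 28 lowered and 1.08 over the 57 raised probes. The 15 largest falls ran from -2.25 to -1.01 and the 15 largest rises from 1.46 to 4.04, the extremes being set against signals mostly at background. The lowered probes were dimmer, with a median signal of -4.95 against -3.97 over the raised probes. Of the 15 largest falls, 11 were above background on fewer than 4 arrays at 5% oxygen, 4 on all 8 arrays, and the groups were separate in 3. Separation occurred in 4.66% of all tested probes, and these 15 too were picked by size among the calls. AK021326 had -4.97, -5.74, -5.38 and -4.25 at 21% and -8.19, -7.59, -7.45 and -6.12 at 5% oxygen, with an adjusted p of 0.00355. The groups did not overlap. The probe was above background on 4 arrays at 21% and on 1 at 5% oxygen and entered the test through the 21% arrays alone, so its fitted change of -2.25 (SE 0.24) is set against signals mostly at background and gives no rank. It was called whichever experiment was left out, and with normexp its change was -0.84.

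AK040640 had -5.50, -6.52, -5.33 and -5.38 at 21% and -7.50, -8.68, -7.36 and -6.68 at 5% oxygen. It was above background on 3 arrays at 21% and on none at 5% oxygen, with no overlap. Reckoned against a floor as for AK018486, its 21% signal was 2.00-fold higher, and its 21% mean includes an array not above background. In hypoxia 4 its signal of -6.68 lay above the floor of -6.82, so this is no strict limit. The measured means were -5.68 ± 0.56 and -7.55 ± 0.83 (SD, n = 4), with an adjusted p of 0.00227 from the fit. It entered the test through the 21% arrays alone, and with normexp its change was -0.53 and the call was lost. AK014678 also had separate groups, at -5.35, -4.10, -5.20 and -5.30 against -6.38, -5.63, -6.74 and -6.26, a change of -1.27 (SE 0.16, adjusted p = 0.00580). It was above background on 2 of the 4 arrays at 5% oxygen and also entered the test through the 21% arrays alone. It lost the call without experiment 3 (adjusted p = 0.0556). Its change was -0.65 with normexp.

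Among the 15 largest falls, AK052941, AK013290, AK039736 and AK138619 were those measured above background on every array. AK052941 had -0.64, -0.81, -1.28 and -0.42 at 21% and -1.51, -2.48, -2.28 and -1.17 at 5% oxygen, a change of -1.07 (SE 0.18, adjusted p = 0.0161). AK013290 had -0.47, -0.93, -1.80 and -0.27 against -1.66, -2.52, -1.997 and -1.32, a change of -1.01 (SE 0.22, adjusted p = 0.0425). AK039736 fell by 1.09 (SE 0.19) and AK138619 by 1.07 (SE 0.21). In all 4 the groups overlapped and the call was lost when at least 1 experiment was left out, with adjusted p up to 0.0995, 0.143, 0.103 and 0.114 in that order. Under normexp the changes were -0.98, -0.98, -0.84 and -0.55, and all 4 were called. AK039736 lost the call with the experiment as a random block, AK138619 with quantile normalization, and AK013290 with each of the 3 other scalings.

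Of the remaining falls among the 15, AK015406 (-1.47), AK166112 (-1.26), AK041677 (-1.22), AK020119 (-1.08) and AK015302 (-1.07) were each above background on 4 arrays at 21% and on 1 at 5% oxygen, and AK146072 (-1.02) on 4 and 3. All but AK146072 entered the test through the 21% arrays alone. AK020119 was called whichever experiment was left out, with adjusted p up to 0.0495, but not with the experiment as a random block. The others lost the call without at least 1 experiment, and AK166112 also with median or quantile scaling. With normexp none of these 6 was called, with changes of -0.47 to -0.21. Adjusted p over the 15 falls ran from 0.00227 to 0.0480 with the block and from 0.0976 to 0.787 without it. The other 13 lowered probes changed by -0.99 to -0.69, and 12 of them were above background on all 8 arrays.

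**Figure D3:**
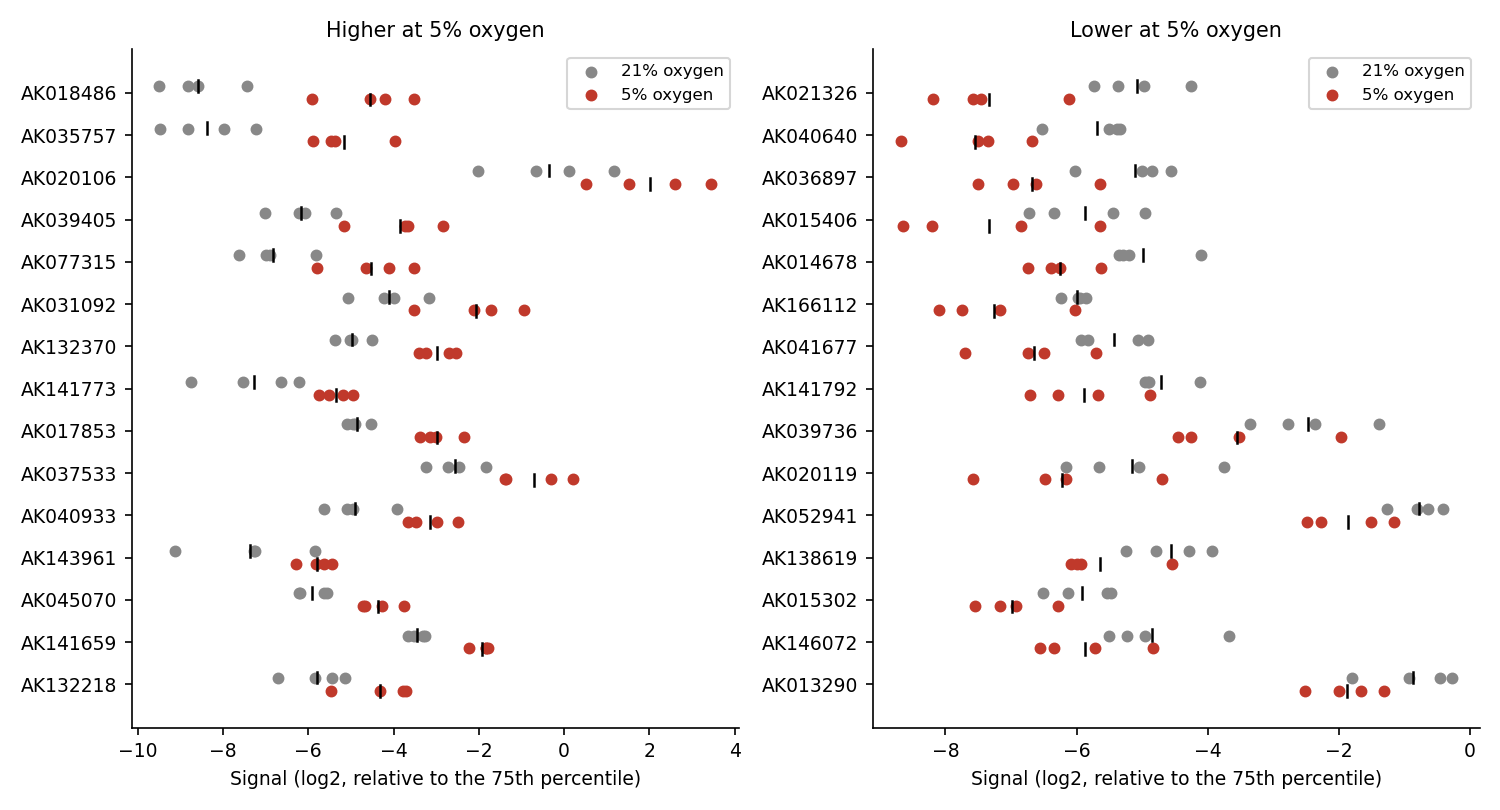
Signal of the 15 AK probes with the largest rises (left) and the 15 with the largest falls (right), 1 point for each of the 4 cultures at 21% oxygen (grey) and 5% oxygen (red), with the group mean as a black bar, in log2 relative to the array's 75th percentile. The groups are separate in 11 of the rises and in 3 of the falls, which were picked by size among the calls, and in 4.66% of all tested probes.

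In many of the named clones the cultures kept an order across oxygen. In 11 of the 15 largest rises culture 2 was the highest of the 4 at both 21% and 5% oxygen, and in 7 of these culture 4 was also the lowest in both. In 11 of the 15 largest falls it was culture 4 that was highest in both conditions. Among the 8 coding genes used as checks, culture 2 was highest in both in 4, and culture 4 lowest in both in 4. The share of all tested probes with such an order was not counted. The order is therefore not given as a trait of these clones. Deviations from the group mean correlated between same-numbered arrays at 0.63, 0.55, 0.44 and 0.35 over 1531 AK probes, a description over probes that share arrays and cultures.

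In experiment 4 the changes of AK probes resembled the other experiments less than those of NM probes did. Over 1531 AK probes the changes in experiments 1, 2 and 3 correlated with each other at 0.50 (1 with 2), 0.51 (1 with 3) and 0.47 (2 with 3), close to the 0.53, 0.53 and 0.49 seen over 20877 NM probes. Experiment 4 correlated with experiments 1, 2 and 3 at 0.31, 0.16 and 0.22 over AK probes but at 0.61, 0.38 and 0.53 over NM probes. These are descriptions across probes, which share arrays and are not independent replicates.

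The lower AK values in experiment 4 appeared at most signal levels. When all tested probes were divided into 5 equal bins of mean signal, the mean correlation of experiment 4 with the other 3 was 0.35, 0.20, 0.17, 0.28 and 0.28 over AK probes, from the dimmest bin to the brightest, and 0.41, 0.45, 0.54, 0.56 and 0.57 over NM probes. Among experiments 1 to 3 it was 0.48, 0.47, 0.58, 0.47 and 0.27 over AK and 0.40, 0.54, 0.59, 0.57 and 0.50 over NM probes. RefSeq noncoding probes (NR_ names, 702 tested) had 0.45 for experiment 4 and 0.51 among the other 3. Probes named only by a genomic interval (8961 with values on all arrays) had 0.12 and 0.27. Low correlation with experiment 4 was thus shared by the AK probes and the interval-named probes, and the bins were drawn after the counts were known. Its relation to the fibroblast marker level, highest in culture 4, was not tested.

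The spread between experiments was wider for AK probes. The median SD of the change over 4 experiments was 0.38 for AK and 0.28 for NM probes, and 24.2% of AK against 33.4% of NM probes moved the same way in all 4. The AK probes were also dimmer, as 57.4% of tested AK probes lay in the lower 2 bins against 24.0% of NM probes. Within bins the median SD was 0.47, 0.37, 0.37, 0.30 and 0.25 for AK and 0.46, 0.36, 0.31, 0.26 and 0.23 for NM probes. The share called was 7.63%, 4.31%, 5.96%, 3.60% and 3.28% of AK and 8.13%, 9.65%, 9.57%, 5.07% and 2.26% of NM probes. Bins 2 and 3, where these shares lay furthest apart, hold 940 AK probes, and the brightest bin held 61 with 2 calls. The differences between classes within bins were not tested.

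**Figure D4:**
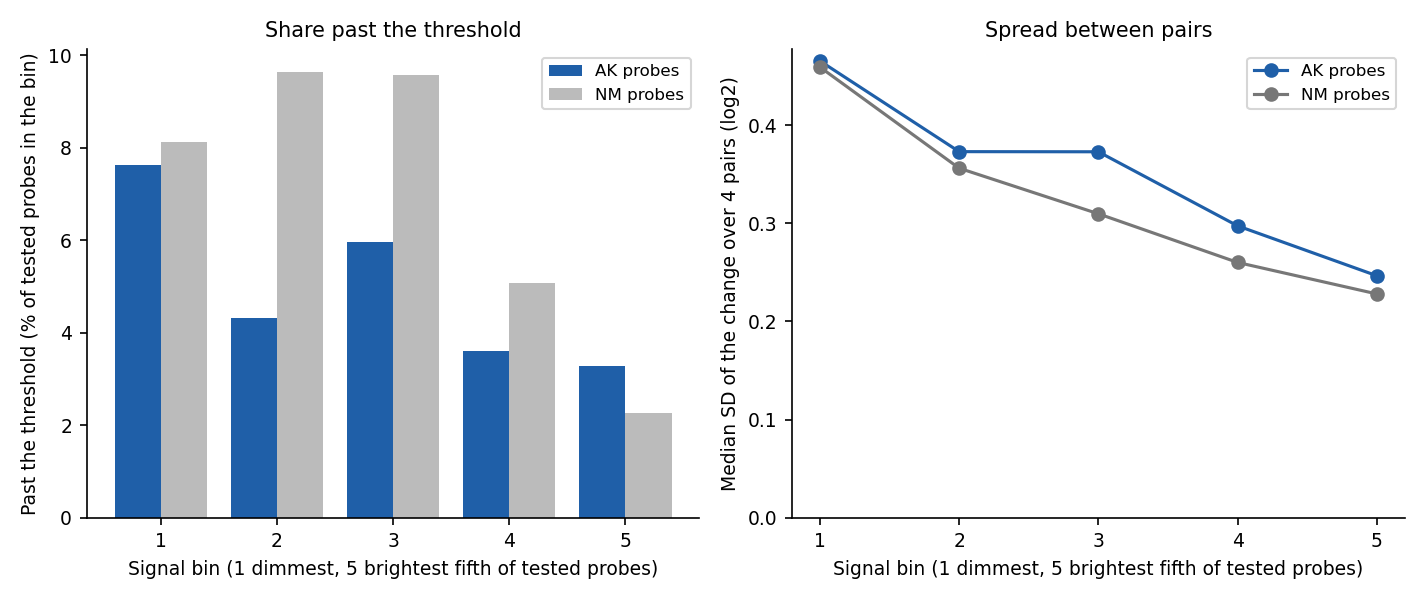
Left, the percent of tested AK probes (blue) and NM probes (grey) called at 5% against 21% oxygen in 5 bins of mean signal, from dimmest to brightest. Right, the median over probes of the SD of the change across 4 experiments, in log2. In bins 2 and 3 the AK bars stand at 4.31% and 5.96% and the NM bars at 9.65% and 9.57%, while the SD differs by at most 0.06 in any bin.

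Some clones differed far more between cultures than between oxygen levels. AK133106 had -1.39, -1.74, -4.61 and -3.74 in cultures 1 to 4 at 21% and -0.90, -1.12, -4.45 and -3.95 at 5% oxygen. Its mean over both arrays was -1.14 and -1.43 in cultures 1 and 2 but -4.53 and -3.85 in cultures 3 and 4, while the change with oxygen was 0.27 (SE 0.17, adjusted p = 0.459). AK040896 was bright in culture 3 at 3.64 and 4.01, against -0.10 to 1.49 on the arrays of the other cultures.

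AK015589 was high in cultures 1 and 4, with means of -3.25 and -2.85, and low in cultures 2 and 3, with -5.23 and -5.81. AK134269 was low in culture 2 alone, at -3.79 and -4.50, against -1.76 to -0.96 on the other 6 arrays. These 4 were the AK probes above background on all 8 arrays with the largest SD between culture means, 1.45 to 1.70. None of the 4 was called for oxygen, and the change turned sign in AK015589 without experiment 3 (-0.17 to 0.05) and in AK134269 without experiment 2 (-0.10 to 0.11). The donors of the 4 experiments differed, and donor and experiment cannot be told apart.

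**Figure D5:**
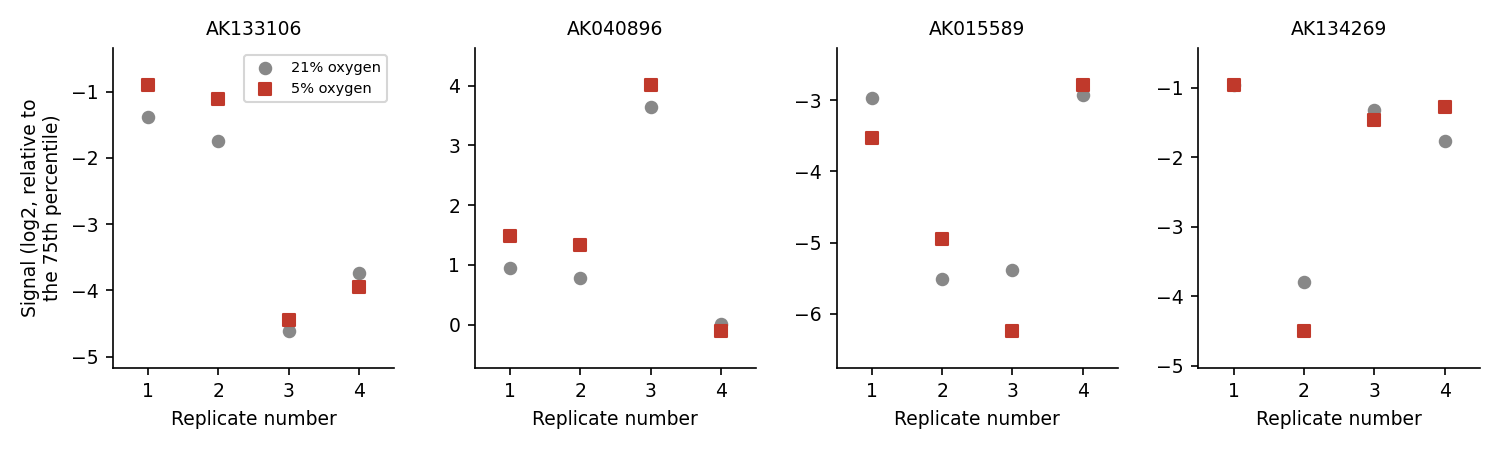
Signal of the 4 AK probes with the largest SD between culture means, in log2 relative to the array's 75th percentile, against replicate number, with 21% oxygen as grey circles and 5% oxygen as red squares. Arrays of the same number lie close together, while cultures differ by up to 3.87 in the mean of both arrays.

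The brightest clones did not pass the threshold. AK203298, AK146304, AK008557, AK007267 and AK132518 had mean signals of 5.86, 5.74, 5.68, 5.66 and 5.65 over the arrays. Their changes were 0.44, 0.21, 0.17, 0.19 and 0.40, with adjusted p from 0.159 to 0.601. For AK132518 the spot of hypoxia 3 was left out as marked, so its values rest on 7 arrays and 3 pairs. With that spot kept its change was 0.11, as in the deposited value table. AK203298 passed the threshold with trend and robust moderation. With quantile normalization the changes of the 5 were 0.19, -0.03, -0.06, -0.03 and 0.08, so no direction is given for them. All 5 were highest in culture 1 at both oxygen levels. So were Actb and Gapdh, the brightest of the coding genes used as checks, while the other check genes were not. The 75th percentile to which signals are relative was lowest on the arrays of culture 1. It was 2990 intensity units in normoxia 1 and 1909 in hypoxia 1, against 4784 to 7352 on the others. Its part in this order was not tested, so the order is not given as a trait of these clones.

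A few clones were read more than once on each array. Of 35 accessions with at least 2 different probes, 12 had at least 2 that could be tested, 9 had 1 and 14 had none. The tested probes had the same sign in 10 of the 12, and the changes of 1 accession differed by a median of 0.08 and at most 1.18. The 3 probes of AK167004 read 0.31, 0.33 and 0.36. The largest disagreement was in AK036897, where 1 probe was called lower at -1.58 (SE 0.36, adjusted p = 0.0480) and was above background on 2 of 4 arrays at 5% oxygen, while the other read -0.39 (SE 0.17, adjusted p = 0.255) and was above background on all 8. The called probe entered the test through the 21% arrays alone. It lost its call without experiment 2 or 3 (adjusted p = 0.116 and 0.223), with each of the 3 other scalings, and with normexp, where it read -0.66. AK141792 was called lower by 1 probe at -1.17 (SE 0.20, adjusted p = 0.0164), lost without experiment 2 or 3 and with normexp (-0.58), and its second probe was above background on 2 arrays at 21% and on none at 5% oxygen and was not tested.

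For AK018620 and AK053689 the same probe was printed 10 times per array, which separates spotting error from the spread between cultures. The SD between the 10 spots of an array was 0.037 to 0.083 for AK018620 and 0.039 to 0.073 for AK053689. AK018620 had -2.09, -2.11, -1.88 and -1.89 at 21% and -2.46, -2.61, -2.50 and -2.16 at 5% oxygen. The groups were separate, yet the change of -0.44 (SE 0.14) did not pass the threshold (adjusted p = 0.127). AK053689 had 1.90, 1.84, 1.46 and 2.45 against 1.39, 0.93, 0.32 and 1.95, a change of -0.76 (SE 0.16, adjusted p = 0.0374) that overlapped between groups and was lost without experiment 1, 2 or 3 and with the experiment as a random block. These clones were picked after the repeats had been seen.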

How the data were processed

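RNA of 8 cultures (4 at 21% and 4 at 5% oxygen) was read on single-colour arrays. Per the submitters' processing notes, the deposited intensity values were extracted with Agilent Feature Extraction 10.7.3.1. The processed signal is background-subtracted and detrended, per the file headers. The flags used here (well above background, non-uniform, population outlier, control type) are those the authors deposited. The value table the authors deposited holds log2 values and equalled the log2 signal minus the array's 75th percentile minus the probe's median, within 0.01 for 100% of AK probes on every array. Its column medians ran from -0.12 to 0.25, and it served as an alternative.

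Control spots and spots marked as outliers (110 to 163 per array) were left out. The log2 signal of each spot minus the array's 75th percentile over non-control probes was averaged over the spots of 1 probe and analysed. Differences within pairs were fitted with limma 3.58.1 in R 4.3.3 (lmFit, eBayes, replicate number as a block) over 37646 probes. Other steps used Python 3.11.15. Both oxygen levels were run in parallel, per the labels' protocols, and the experiments had different donors, per the series' design text. Deviations of same-numbered arrays correlated at 0.74, 0.51, 0.37 and 0.62 over 37593 probes. The scripts were tested on simulated data. The number of arrays limits the precision.

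The members, lists and naming rule were chosen with earlier results of these data known. Named were up to 15 clones per direction by size of change among those called with the same sign in 4 pairs, those called without the block, those above background on 4 arrays of 1 condition and none of the other, the 5 brightest, the 4 with the largest SD between cultures, and called clones with several probes. Alternatives covered the block, scaling, background, dim-probe filter, marked spots, moderation and leaving out each pair. The array was designed on another build than the gene table, so no coordinates are given.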

Additional observations from a re-analysis of the deposited data

Results flagged for a closer look

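Among 90 groups of 4 arrays formed by the named clones and detection shares, 7 held 1 array far from the other 3, where chance gives about 1 in 20. AK141659 in hypoxia 4 was at -2.22, with the others between -1.83 and -1.79. AK138619 in hypoxia 4 was at -4.54 against -6.08 to -5.94, and AK141792 in normoxia 4 at -4.11 against -4.96 to -4.90. In normoxia 2, AK040640 was low at -6.52 against -5.50 to -5.33, and AK014678 was high at -4.10 against -5.35 to -5.20. AK203298 in hypoxia 1 was at 7.04 against 5.71 to 5.83. AK134269 in hypoxia 2 was at -4.50 against -1.47 to -0.96, and its normoxia 2 array was low as well at -3.79.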

How the results depend on the processing

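The counts of called AK probes depended on the replicate block and the filter. With no replicate block, 57 higher and 28 lower became 4 and 0 (limma; 128 with an unadjusted p under 0.05), and with no filter on dim probes 16 and 4. Leaving out 1 experiment gave 14 to 74 higher and 4 to 37 lower. Without the block and without any 1 experiment no AK probe was called by limma, with 71 to 153 at an unadjusted p under 0.05. Under the other alternatives the counts ran from 45 to 80 higher and from 21 to 38 lower. The fit with trend and robust moderation gave 80 and 38, and called 2985 of all tested probes against 1803. The gap in the share detected was -17.4 percentage points, -8.59 when a probe needed only to be positive and significant against its local background, and -17.7 to -16.8 without 1 experiment. The median change of AK probes stayed between -0.04 and 0.08. No named clone that was called changed sign under any alternative, while 5 of the named clones that were not called did (AK146304, AK008557, AK007267, AK015589 and AK134269). The called clones had the same sign in all 4 experiments, so leaving out 1 could not turn theirs. The block, filter and moderation settings left their fitted changes as they were. Under those settings their steady sign is no separate support. Of 42 named probes, those called were the 15 largest rises, the 15 largest falls and AK053689, and the others had no call to lose. Of the called ones, 27 lost the call without the block, 17 with no filter, 17 without experiment 3 and 9 with normexp. The comparison of AK with NM probes of the same gene was not run, since no table used here pairs an AK accession with a gene. Signals of the 648 probes at background on every array carry no level.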
